A study of Mus musculus with 6 samples.

Results

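Cd34, Gpc1, Prom1, Cd48, Cd93, Cd44, Selplg and Podxl encode 8 surface glycoproteins that are used to mark, or are displayed by, blood stem and progenitor cells. They were found by symbol among the 41128 genes of an RNA sequencing table from sorted mouse acute myeloid leukemia (AML) cells, and all 8 had a row. Cd34 and Gpc1 were selected because they fell strongly between the same leukemias, so their differences are given as descriptions with no test. The other 6 were taken as further progenitor surface glycoproteins.

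The 6 libraries came from 6 mice, 3 with Hoxa9/MTV leukemia (mice 1.1, 1.2 and 1.4) and 3 with Hoxa9/IRX3 leukemia (mice 3.2, 3.3 and 3.5). Both leukemias were started from KIT+ bone marrow cells of C57BL/6 background CD45.1+ mice carrying retroviral Hoxa9. The second retrovirus was either the empty vector MTV or a vector with human IRX3 cDNA. IRX3 is a homeodomain transcription factor known for its roles in the embryonic nervous system and mesoderm. Transduced cells were drug-selected and given to irradiated CD45.2+ recipients together with CD45.2+ helper marrow, so every group carried Hoxa9 and the recipients kept non-leukemic blood cells. Marrow of sick mice was thawed and CD45.1+ KIT+Gr1+ cells were flow sorted, with 1 library from each mouse. Per the study's methods, donors and recipients were young adult females at transplantation. The recipients were older when marrow was taken, and their ages at that time are not given here. The paper reports a later onset of AML in Hoxa9/IRX3 recipients, so age at sampling may differ between the groups. The comparison asks how surface genes of Hoxa9 leukemia cells differ when IRX3 is also expressed.

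CD34 is a sialomucin, a protein whose outer part is covered in O-linked sugars. It is the antigen most used to enrich human stem and progenitor cells. Podocalyxin (Podxl) is its relative. Glypican-1 (Gpc1) is a proteoglycan held in the membrane by a lipid anchor, whose heparan sulfate chains bind growth factors. CD44 binds hyaluronan in the marrow matrix, and PSGL-1 (Selplg) binds the selectins of the vessel wall. CD48 is a SLAM family protein that binds CD244, CD93 is a C-type lectin domain protein of early myeloid and endothelial cells, and prominin-1 (Prom1, CD133) sits in membrane protrusions of many stem cells.

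Among the 8 genes, RefSeq (GRCm38.p6) promoter sequences were at hand for Cd34, Cd44, Cd48 and Prom1. The 250 bases before the start of the first 3 are shown because each of these genes was lower in every Hoxa9/IRX3 mouse than in any Hoxa9/MTV mouse. The Cd34 window is chr1:194938571-194938820 (+), the Cd44 window chr2:102901666-102901915 (-) and the Cd48 window chr1:171681742-171681991 (+). Each is written 5′ to 3′ on the strand of its gene, and capitals mark CpG dinucleotides, the sites at which DNA can be methylated.
Cd34: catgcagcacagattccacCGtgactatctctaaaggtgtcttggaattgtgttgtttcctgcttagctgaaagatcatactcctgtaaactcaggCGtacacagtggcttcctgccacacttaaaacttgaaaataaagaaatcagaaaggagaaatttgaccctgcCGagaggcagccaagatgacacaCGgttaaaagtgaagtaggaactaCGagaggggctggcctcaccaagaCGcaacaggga
Cd44: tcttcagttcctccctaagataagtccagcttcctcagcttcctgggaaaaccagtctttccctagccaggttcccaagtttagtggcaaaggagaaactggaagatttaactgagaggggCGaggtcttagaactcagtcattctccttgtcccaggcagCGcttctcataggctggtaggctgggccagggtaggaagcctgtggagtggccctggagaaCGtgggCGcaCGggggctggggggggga
Cd48: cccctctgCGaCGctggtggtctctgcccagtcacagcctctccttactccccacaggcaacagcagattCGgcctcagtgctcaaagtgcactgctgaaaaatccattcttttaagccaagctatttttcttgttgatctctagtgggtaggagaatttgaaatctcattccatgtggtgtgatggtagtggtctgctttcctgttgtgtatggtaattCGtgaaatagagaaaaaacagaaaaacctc

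The Cd34 window held 6 CpG dinucleotides, Cd44 held 5 and Cd48 held 4, and the median over 32851 promoter windows of the same length was 6. Both strands were searched for 4 letter patterns: ACANNTGT, which Iroquois proteins such as IRX3 bind; GAGGAAGT, an ETS pattern; TGATTTAT, bound by HOX with PBX proteins; and TTGCNNAA, a C/EBP pattern. None of the 4 occurred in these 3 windows. Of the Prom1 windows, chr5:44101737-44101986 held none, and chr5:44094769-44095018 held 1 ETS match. Over all promoter windows, 6.31% held the Iroquois pattern, 2.44% the ETS pattern, 0.837% the HOX-PBX pattern and 9.56% the C/EBP pattern. A missing match says only that these letters are not in the window.

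Values are RPKM, reads of a gene divided by its length and by library size, as the authors computed them. Lengths were recovered from the table for the 8 surface genes only, except Podxl, which had no reads. They were close to the whole gene span, introns included, except for Selplg (12704 bases against a span of 14109). For all other genes the annotated span was used unchecked, so their read numbers can be off. The library totals recovered from the table, by which RPKM was scaled, were 7979246 to 9803621 reads per mouse. They count reads left after filtering, not all sequenced reads. Read numbers below were recovered in the same way. Tests were made with limma on log2(RPKM + 0.5) over 9522 protein-coding genes above 0.5 RPKM in at least 1 mouse, and a gene was called at a Benjamini-Hochberg adjusted p under 0.05. A fold change on this scale understates the change of low genes. Irx3, to which reads of the human transgene could in part be assigned, was at 0 in every Hoxa9/MTV mouse and reached 15.1 RPKM in mouse 3.2, 0.421 in mouse 3.3 and 0.148 in mouse 3.5. Hoxa9 lay at 174 to 363 RPKM in Hoxa9/MTV mice and 154 to 242 in Hoxa9/IRX3 mice. Of the sorted antigens, Kit lay at 2.48 to 3.12 RPKM in the Hoxa9/MTV mice and 1.63 to 2.70 in the Hoxa9/IRX3 mice (adjusted p = 0.323, limma). Ly6g, 1 of the genes behind the Gr1 epitope, was at 0.0532 to 0.145 RPKM in Hoxa9/MTV mice (2 to 5 reads) and at 0.682 to 1.42 in Hoxa9/IRX3 mice, through which alone it passed the filter. Ly6c2, the more abundant Gr1 gene, lay at 413 to 479 and 414 to 844 RPKM (adjusted p = 0.278, limma).

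Cd34 was nearly lost from the Hoxa9/IRX3 leukemias. The gene (ENSMUSG00000016494, GRCm38 chr1:194938819-194961279, + strand) stood at 18.5, 15.3 and 18.3 RPKM in mice 1.1, 1.2 and 1.4 and at 0.819, 0.00454 and 2.41 RPKM in mice 3.2, 3.3 and 3.5. The groups did not overlap, and the highest Hoxa9/IRX3 mouse kept 13.9% of the Hoxa9/MTV mean. Group means were 17.4 ± 1.81 and 1.08 ± 1.22 RPKM (SD, n = 3 each), a 16.1-fold ratio, and the log2 fold change was -3.84 ± 0.58 (SE). By size of fall Cd34 stood at position 3 of the 9522 tested genes, which is what it was selected for. In mouse 3.3 a single read was assigned to Cd34 (1 read, exact Poisson 95% interval 0.0253 to 5.57, counting error only), against 163 reads in mouse 3.2, 432 in mouse 3.5 and 2853 to 3984 in the Hoxa9/MTV mice. In bulk RNA, fewer Cd34-expressing cells and less Cd34 RNA per cell cannot be told apart.

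Gpc1 fell with it. Glypican-1 (ENSMUSG00000034220, chr1:92831645-92860779, + strand) stood at 36.4, 42.2 and 37.8 RPKM in the Hoxa9/MTV mice against 1.99, 0.196 and 7.53 RPKM in mice 3.2, 3.3 and 3.5. Again the groups did not overlap and mouse 3.3 was lowest, with 56 reads against 9372 to 10645 in the Hoxa9/MTV mice. Means were 38.8 ± 3.03 and 3.24 ± 3.82 RPKM (SD, n = 3 each), a 12.0-fold ratio, with a log2 fold change of -4.03 ± 0.80 (SE) at position 2 of the tested genes.

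The 3 Hoxa9/IRX3 mice took the same order for Cd34 and Gpc1, with 3.3 lowest and 3.5 highest. Reads of Gpc1 per read of Cd34 numbered 2.55, 3.58 and 2.67 in the Hoxa9/MTV mice and 3.16 and 4.05 in mice 3.2 and 3.5. In mice 3.2 and 3.5 the ratio thus stayed close while both genes fell. In mouse 3.3 the ratio was 56, from 56 Gpc1 reads and 1 Cd34 read. Even at the upper Poisson limit of 5.57 Cd34 reads, it would lie above the ratio of every other mouse. Between the lowest and highest Hoxa9/IRX3 mouse Cd34 spanned 531-fold and Gpc1 38.4-fold. The Hoxa9/MTV mice varied far less, with an SD of 10.4% of the mean for Cd34 and 7.82% for Gpc1, against 114% and 118% in Hoxa9/IRX3 mice.

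**Figure D1:**
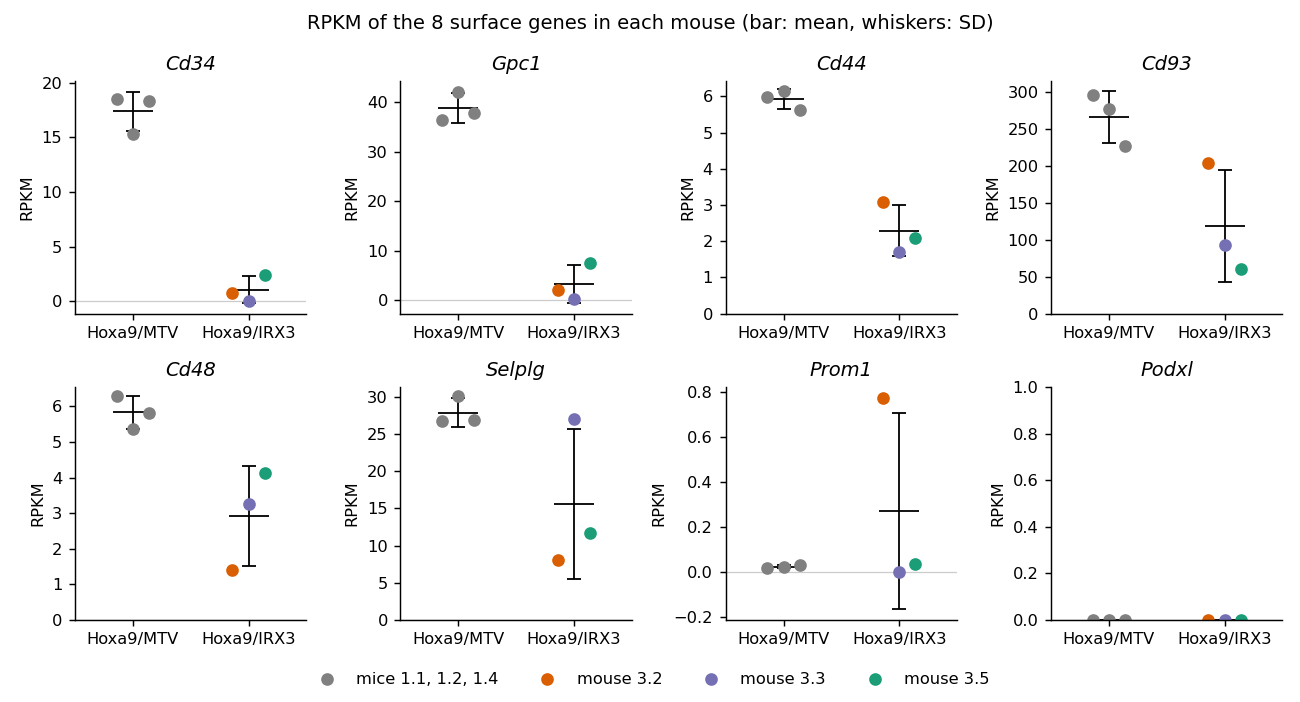
RPKM (linear axes) of the 8 genes in each mouse, with a panel per gene; points are mice, bars group means and whiskers SD over 3 mice. Cd34, Gpc1, Cd44, Cd93 and Cd48 show no overlap between groups, mouse 3.3 holds Selplg at 27.0 RPKM among the Hoxa9/MTV values, only mouse 3.2 raises Prom1, to 0.773 RPKM, and Podxl lies at 0 in all 6 mice.

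Of the 6 genes not selected by their fall, Cd44 alone passed the test. Cd44 (ENSMUSG00000005087, chr2:102811141-102901665, - strand), the hyaluronan receptor, stood at 5.99, 6.15 and 5.62 RPKM in the Hoxa9/MTV mice against 3.08, 1.71 and 2.09 RPKM in mice 3.2, 3.3 and 3.5. The groups did not overlap, with means of 5.92 ± 0.275 and 2.30 ± 0.705 RPKM (SD, n = 3 each). It fell by 1.23 ± 0.19 (SE) on the log2 scale, a 2.58-fold ratio of means (adjusted p = 0.0214, limma). The background was 3.52% of tested genes called lower (335 genes) and 1.84% called higher (175 genes), a split that became 278 lower and 235 higher after quantile normalization. The call on Cd44 was lost when each Hoxa9/MTV mouse was left out in turn, with adjusted p = 0.0966 without 1.1, 0.106 without 1.2 and 0.0961 without 1.4 (limma). It held without each Hoxa9/IRX3 mouse, and the fold change over the 6 such fits was -1.42 to -1.07.

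Cd93 (ENSMUSG00000027435, chr2:148436640-148443563, - strand) had the highest group means of the 8, by RPKM and per exon length. It stood at 296, 277 and 227 RPKM in the Hoxa9/MTV mice against 204, 92.6 and 59.8 RPKM in mice 3.2, 3.3 and 3.5. Every Hoxa9/IRX3 value was below every Hoxa9/MTV value, but mouse 3.2 lay near them, at 76.5% of the Hoxa9/MTV mean. Means were 267 ± 35.3 and 119 ± 75.6 RPKM (SD, n = 3 each), and the log2 difference of -1.34 ± 0.43 (SE) did not pass the test (adjusted p = 0.122, limma). Without mouse 3.2 the difference was -1.83 and passed (adjusted p = 0.0172, limma), and over all 6 fits with a mouse left out the adjusted p ran from 0.0172 to 0.297.

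Cd48 (ENSMUSG00000015355, chr1:171682009-171705258, + strand), which normal stem cells lack and more mature progenitors carry, stood at 6.29, 5.36 and 5.83 RPKM in the Hoxa9/MTV mice against 1.39, 3.26 and 4.13 RPKM in mice 3.2, 3.3 and 3.5. The groups did not overlap, and here mouse 3.2 was lowest. Means were 5.83 ± 0.465 and 2.93 ± 1.40 RPKM (SD, n = 3 each), and the log2 difference of -0.98 ± 0.32 (SE) did not pass (adjusted p = 0.130, limma). With a mouse left out it lay between -1.24 and -0.60, the smallest without mouse 3.2, at adjusted p from 0.0690 to 0.321 (limma).

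Cd44, Cd93 and Cd48, 3 of the 6 genes, had groups that did not overlap with Hoxa9/IRX3 lower. Over all tested genes 21.6% had that pattern and 12.2% the opposite one. The median log2 fold change of the 5 tested genes of these 6 was -0.999, against -0.06 over all tested genes; the genes were picked with results of these data known, and Prom1 was tested only because of mouse 3.2.

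Selplg (ENSMUSG00000048163, chr5:113818536-113832644, - strand), the selectin ligand PSGL-1, stood at 26.8, 30.1 and 26.9 RPKM in the Hoxa9/MTV mice against 8.01, 27.0 and 11.7 RPKM in mice 3.2, 3.3 and 3.5. Mice 3.2 and 3.5 were low while mouse 3.3, the mouse with the least Cd34 and Gpc1, kept 96.8% of the Hoxa9/MTV mean, so the groups overlapped. Means were 27.9 ± 1.89 and 15.6 ± 10.1 RPKM (SD, n = 3 each), with a log2 difference of -0.999 ± 0.41 (SE) that did not pass (adjusted p = 0.198, limma). Without mouse 3.3 it was -1.48 and passed (adjusted p = 0.0179, limma), and over the 6 fits with a mouse left out the adjusted p ran from 0.0179 to 0.403.

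Prom1 (ENSMUSG00000029086, chr5:43993620-44102032, - strand) was close to absent except in mouse 3.2. It stood at 0.0188, 0.0233 and 0.0305 RPKM in the Hoxa9/MTV mice (18 to 32 reads) and at 0.773 (743 reads), 0.00282 (3 reads) and 0.0370 RPKM (32 reads) in mice 3.2, 3.3 and 3.5. Mouse 3.2 was also the mouse with the highest Irx3 value, and the other Hoxa9/IRX3 mice lay around the Hoxa9/MTV mice. The log2 difference was 0.42 ± 0.37 (SE, adjusted p = 0.516, limma), and without mouse 3.2 the gene was under the filter and had no test. Gm16401, on the opposite strand over the Prom1 start, was also read only in mouse 3.2, at 0.327 RPKM; whether the counting used strand is not stated, so reads of the pair may be shared.

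Podxl (ENSMUSG00000025608, chr6:31519488-31563981, - strand) was listed at 0 in all 6 mice and was not tested. A count of 0 allows up to 3 reads, which is 0.00688 to 0.00845 RPKM for this gene depending on the mouse, so podocalyxin RNA was not detectable at this depth in either leukemia.

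The genes thus differed in which Hoxa9/IRX3 mouse was lowest. Mouse 3.3 was lowest for Cd34, Gpc1 and Cd44, mouse 3.5 for Cd93, and mouse 3.2 for Cd48 and Selplg. As a share of the Hoxa9/MTV mean, mouse 3.2 kept 4.71% of Cd34, 5.14% of Gpc1, 23.8% of Cd48, 28.7% of Selplg, 52.0% of Cd44 and 76.5% of Cd93. Mouse 3.5 kept 13.9% of Cd34 and 19.4% of Gpc1 but 70.8% of Cd48. No Hoxa9/IRX3 mouse reached the Hoxa9/MTV mean for any of these 6 genes.

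**Figure D2:**
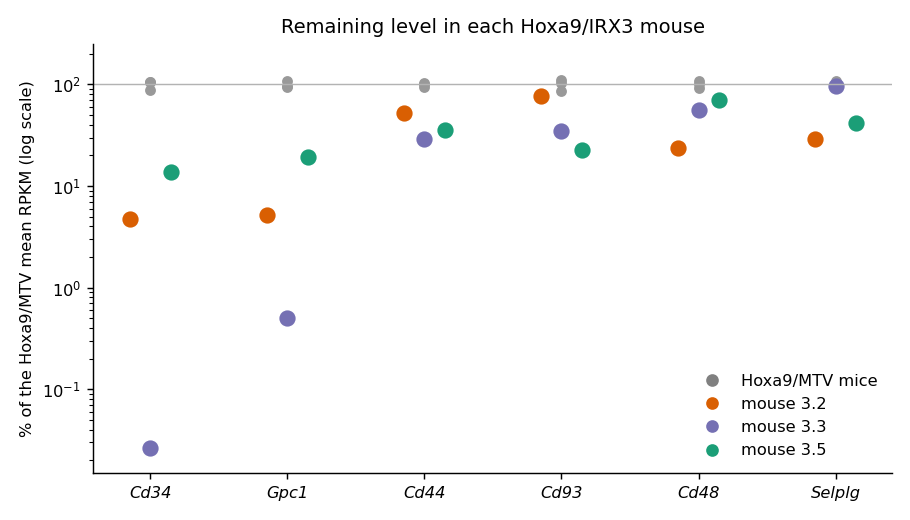
Share of the Hoxa9/MTV mean RPKM (log axis, %) kept by each mouse for 6 genes; grey points are Hoxa9/MTV mice, colored points the 3 Hoxa9/IRX3 mice, and the line marks 100%. Cd34 and Gpc1 lie lowest in all 3 Hoxa9/IRX3 mice, down to 0.0261% for Cd34 in mouse 3.3, while the order of the mice changes from gene to gene.

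Over the 6 mice, Cd34 and Gpc1 had a Pearson r of 0.99 on log2(RPKM + 0.5), and Cd34 and Cd44 one of 0.93. These values describe 6 points that form separate groups, in genes partly selected for that separation, so they carry no p. Cd93 went most with Cd44 (r = 0.90) and Cd48 with Selplg (r = 0.79). Prom1 ran against Cd48 (r = -0.88) and Selplg (r = -0.80), through mouse 3.2.

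Comparison of levels between genes needs the RNA's own length, so reads were also divided by the summed exon length of each gene with the same scaling to the library. On this scale the Hoxa9/MTV means were 276 ± 36.6 for Cd93, 219 ± 17.1 for Gpc1, 114 ± 9.08 for Cd48, 83.0 ± 5.63 for Selplg, 79.1 ± 3.68 for Cd44, 53.6 ± 5.58 for Cd34 and 0.366 ± 0.0895 for Prom1 (SD, n = 3). The ranges of Cd93 and Gpc1 overlapped over mice, although Cd93 was above Gpc1 within each of the 3. Those of Selplg and Cd44 overlapped too, and their order differed between mice. In the Hoxa9/IRX3 mice the means were 123 ± 78.4 for Cd93, 57.2 ± 27.4 for Cd48, 46.4 ± 30.0 for Selplg, 30.7 ± 9.42 for Cd44, 18.3 ± 21.6 for Gpc1, 4.10 ± 6.58 for Prom1 and 3.32 ± 3.77 for Cd34. Every neighbouring pair in this order overlapped. Glypican-1 RNA, next to Cd93 at the top of the Hoxa9/MTV order, lay below Cd48, Selplg and Cd44 by its mean in Hoxa9/IRX3 mice, although mouse 3.5 still held 42.5 on this scale. Exons made up 5.11% (Cd48) to 96.4% (Cd93) of the length used for RPKM, and reads in introns are included in both scales.

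**Figure D3:**
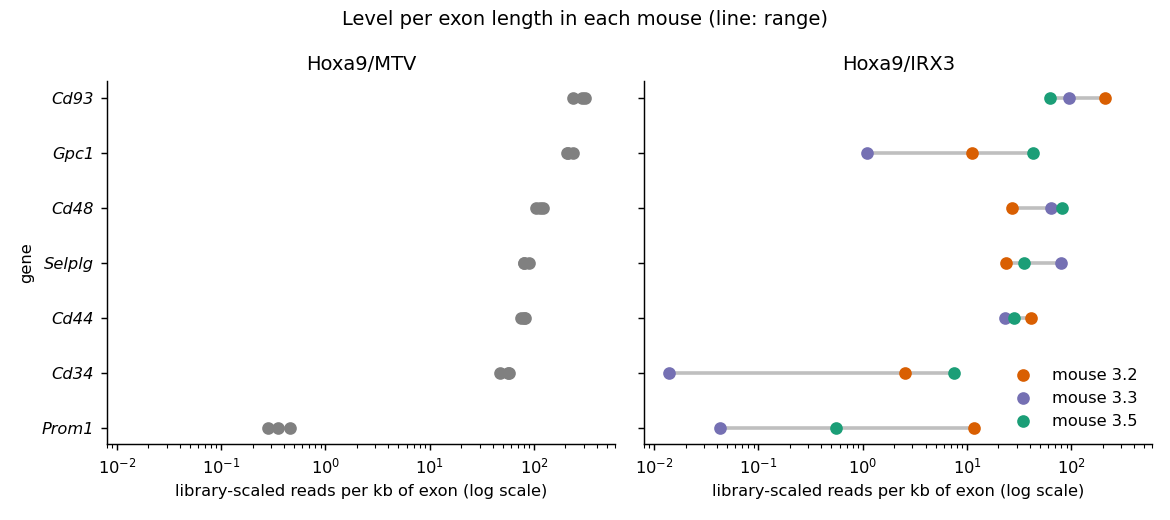
Level of 7 genes per exon length (library-scaled reads per kb of exon, log axis) in the 3 mice of each group; points are mice and lines ranges, and genes are ordered by the Hoxa9/MTV mean. Points of a gene sit close together in Hoxa9/MTV mice and spread widely in Hoxa9/IRX3 mice, with Cd34 at 0.0140 in mouse 3.3 and 7.43 in mouse 3.5.

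The relatives and partners of the 8 genes were read from lists of their families, sugar-making enzymes and ligands. These lists named 137 other genes, of which 132 were in the table and 72 were tested. Of the 72, 4 were called lower and 4 higher, beside 3.52% and 1.84% of all tested genes, and their median log2 fold change was -0.02. Of these 8, 3 (Sdc2, Flt3 and Sh2d1b2) passed the filter through 1 group only. Each of these 8 calls was lost without some mouse, in most cases with each of the 3 Hoxa9/MTV mice left out in turn.

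Among sialomucins, Podxl2, the other CD34 relative, was too low to test (0 to 8 reads per mouse). Of 5 tested other mucin-type sialoglycoproteins 1 was called. Cd68, a lysosomal mucin of monocytes and macrophages, was at 67.9, 87.3 and 80.1 RPKM in Hoxa9/MTV mice against 13.1, 18.3 and 6.71 RPKM in mice 3.2, 3.3 and 3.5 (log2 fold change -2.68, adjusted p = 0.0135, limma). All 3 Hoxa9/IRX3 mice were low; without each of the Hoxa9/MTV mice in turn the call was lost, at adjusted p up to 0.0763. Spn (CD43), the major leukocyte sialomucin, stood at 176 to 183 and 172 to 213 RPKM (adjusted p = 0.749, limma).

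Among proteoglycans, Sdc2 and Srgn stood higher in the Hoxa9/IRX3 mice. Sdc2 (syndecan-2), a transmembrane heparan sulfate proteoglycan, was at 0 to 0.00893 RPKM in Hoxa9/MTV mice against 0.569, 0.373 and 0.822 RPKM in mice 3.2, 3.3 and 3.5. It passed the filter only through the Hoxa9/IRX3 mice, in which it was high, and it was not tested under the stricter filter (above 1 RPKM in at least 3 mice), so its values are a description. It was 1 of 2 tested glypicans and syndecans beside Gpc1. By the annotated span, Sdc2 had about 576, 418 and 749 reads in mice 3.2, 3.3 and 3.5. In mice 1.1, 1.2 and 1.4 it had 9, 0 and 0. Its RPKM divides these by a whole gene span and does not compare its level with that of other genes. Gpc2 lay at 0.707 to 1.33 and 0.105 to 1.24 RPKM (adjusted p = 0.383, limma), and Gpc3, Gpc4, Gpc5 and Gpc6 were under the filter. Srgn (serglycin), the proteoglycan of secretory granules, was at 21.8, 21.4 and 33.3 RPKM and at 98.8, 57.7 and 81.2 RPKM (1.61, adjusted p = 0.0257, limma), 1 of 3 tested core proteins of other proteoglycans. The call on Srgn was lost without each Hoxa9/MTV mouse in turn and without mouse 3.5, at adjusted p up to 0.120. With all mice it was lost with no filter on expression.

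Of 13 tested enzymes that build or edit heparan sulfate, the chains that Gpc1 carries, 1 was called. Glce, the epimerase that converts glucuronic to iduronic acid, was at 1.29, 0.766 and 0.866 RPKM in Hoxa9/MTV mice against 1.97, 2.00 and 2.29 in mice 3.2, 3.3 and 3.5 (0.83, adjusted p = 0.0361, limma). With a mouse left out the call held only without mouse 3.2, and the adjusted p reached 0.153 without mouse 1.4 (limma). With all mice it was lost with no filter on expression, with all gene types tested and where a 2-fold change was required. In 7 of the 13 the Hoxa9/IRX3 mice were all lower, and in 2 all higher (21.6% and 12.2% of all tested genes), with a median log2 fold change of -0.26 against -0.06.

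Of the 4 tested SLAM family genes and adaptors beside Cd48, 2 were called lower. Cd244, which encodes the receptor that binds CD48, was at 1.81, 2.05 and 2.70 RPKM in Hoxa9/MTV mice against 0.138, 0.0781 and 0.696 RPKM in mice 3.2, 3.3 and 3.5 (-1.81 ± 0.29 SE, adjusted p = 0.0250, limma). Sh2d1b2, an adaptor that binds tails of SLAM receptors, was at 0.556, 0.453 and 0.639 RPKM and at 0.10, 0.00193 and 0.00237 RPKM. It passed the filter only through the Hoxa9/MTV mice and was not tested under the stricter filter, which left Cd244 as the 1 call. The call on Cd244 was lost without each of the Hoxa9/MTV mice in turn, at adjusted p up to 0.115. Neither Cd48 nor Cd244 overlapped between groups, but of this receptor and ligand pair the difference in Cd48 did not pass.

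Thbd (thrombomodulin), the only tested relative of Cd93, was at 18.6, 14.5 and 11.2 RPKM in Hoxa9/MTV mice against 0.637, 6.11 and 0.572 RPKM in mice 3.2, 3.3 and 3.5. The groups did not overlap, but the log2 difference of -2.90 ± 0.70 (SE) did not pass (adjusted p = 0.0654, limma). Cd248 and Clec14a, the other relatives, were listed at 0 throughout.

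Selectins and the enzymes that decorate PSGL-1 so that selectins bind it gave 1 call. C1galt1, the galactosyltransferase that starts core 1 O-glycans, was at 2.00, 1.63 and 1.28 RPKM in Hoxa9/MTV mice against 5.01, 3.69 and 3.49 RPKM in mice 3.2, 3.3 and 3.5 (1.09, adjusted p = 0.0271, limma), 1 of 13 tested enzymes. This call too was lost without each Hoxa9/MTV mouse in turn, at adjusted p up to 0.120. With all mice it was lost with no filter on expression. Glg1, a ligand of E-selectin, lay at 3.05 to 3.99 and 2.41 to 2.92 RPKM (adjusted p = 0.178, limma). Selp lay at 0.149 to 0.187 and 0.0844 to 0.606 RPKM, and Sele was under the filter.

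**Figure D4:**
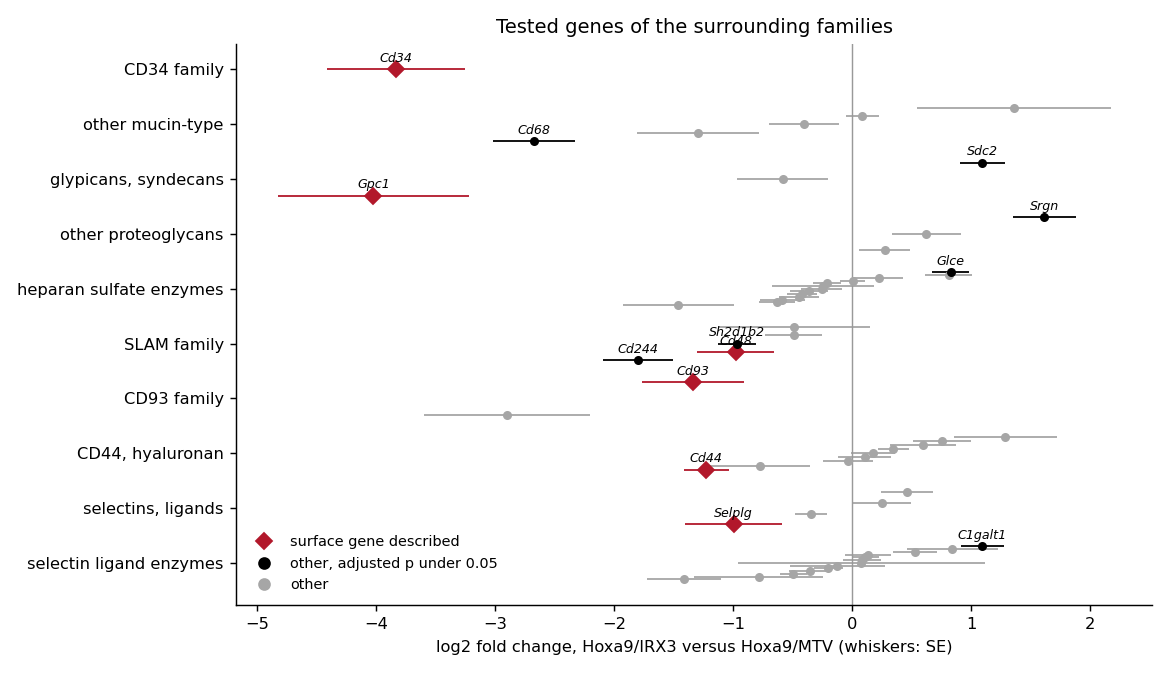
Log2 fold change (Hoxa9/IRX3 versus Hoxa9/MTV, log2(RPKM + 0.5) scale) of tested genes in 10 families; points are genes, whiskers SE, diamonds the surface genes described here and black points other genes with adjusted p under 0.05. Cd34 and Gpc1 lie at -3.84 and -4.03, Cd68 and Cd244 lie lower in their families, and Sdc2, Srgn, Glce and C1galt1 lie to the right of 0.

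No gene was called among 8 tested hyaluronan enzymes, receptors and partners of CD44 (limma). None was called among 5 tested linkers of CD44 and related tails to the cytoskeleton. At an unadjusted p under 0.05 (limma), 3 of the 8 were higher in Hoxa9/IRX3 mice and 1 of the 5 was lower. Limma-voom on recovered reads called none in either list. Of 16 tested other surface proteins of stem and progenitor cells 1, Flt3, was called. Flt3, the cytokine receptor of multipotent and lymphoid progenitors, was at 0.999, 0.604 and 0.883 RPKM in Hoxa9/MTV mice against 0.00162, 0.0249 and 0.0252 RPKM in mice 3.2, 3.3 and 3.5. It passed the filter only through the Hoxa9/MTV mice, in which it was high, and was not tested under the stricter filter, so its values too are a description. In 2 of the 16 the Hoxa9/IRX3 mice were all lower, and in 3 all higher (21.6% and 12.2% of all tested genes). Thy1 was at 0.0695 to 0.0871 RPKM in Hoxa9/MTV mice against 0.391, 1.65 and 108 in mice 3.2, 3.3 and 3.5. Ly6a was at 0 to 0.0983 RPKM in Hoxa9/MTV mice against 0.215, 0.129 and 1.67 in mice 3.2, 3.3 and 3.5. Both passed the filter only through Hoxa9/IRX3 mice, so their values are a description.

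By the same r over 6 mice, the tested genes of at least 1 RPKM most like Cd34 were Sptssa, Limd2, Lsp1, Fam102b and Gpc1, with r from 0.992 to 0.995. Those most like Gpc1 were Tmem141, Fam102b, Maml1, Cd34 and Laptm5, with r from 0.992 to 0.997. In all of them the Hoxa9/IRX3 mice lay below the Hoxa9/MTV mice, which follows from likeness to genes selected for their fall. The r takes no account of size. Apart from Cd34 and Gpc1 themselves, the log2 fold changes ran from -1.48 (Lsp1) to -0.29 (Maml1).

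Genes beside Cd34 and Gpc1 on chromosome 1, a comparison chosen after the values were seen, were also read. The nearest tested genes, up to 3 on each side, had log2 fold changes from -0.95 to 1.79 around Cd34 (4 genes) and from -0.74 to 0.39 around Gpc1 (6 genes). Those to the left of Cd34 were far off, at 1666 to 1737 kb. Both ends of its range came from them, Traf3ip3 at -0.95 and G0s2 at 1.79. Cr1l, 136 kb to the right of Cd34, lay at 1.05 to 1.32 RPKM in Hoxa9/MTV mice and 0.991 to 1.53 in Hoxa9/IRX3 mice, a log2 difference of 0.05 ± 0.15 (SE). Dusp28, 46.2 kb to the right of Gpc1, lay at 8.24 to 10.2 and 7.29 to 11.2 RPKM, a log2 difference of 0.03 ± 0.19 (SE). Gm16897, which overlaps Cd34 on the other strand, was read at no more than 0.0289 RPKM.

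Markers of other cells that could hold Cd34, Cd93 or Podxl RNA were summed in each mouse. Of 12 endothelial markers 2 were listed at 0 in every mouse and 3 passed 0.5 RPKM in some mouse; the sum was 2.04 to 2.12 RPKM in Hoxa9/MTV mice and 0.667 to 7.76 in Hoxa9/IRX3 mice. Most of it was Pecam1, which leukocytes also carry, and the endothelial cadherin Cdh5 did not pass 0.00526 RPKM in any mouse. The sum of 11 stromal markers, 4 of them at 0 throughout, was 1.05 to 2.15 and 0.170 to 0.863 RPKM. Its separation came from Pdgfrb, at 0.943 to 1.74 and 0.0170 to 0.473 RPKM. Markers of mast cells and basophils, 10 genes with 5 at 0, summed to 14.5 to 20.3 and 4.51 to 7.31 RPKM. Of the 4 tested, 2 were called lower, beside 3.52% of all tested genes. These were Gata2 (adjusted p = 0.0166, limma) and Cpa3, which passed the filter only through the Hoxa9/MTV mice. In 3 of the 4 the Hoxa9/IRX3 mice were all lower and in 1 all higher, and limma-voom on recovered reads called none. Gata2 was not called without 1.1, 1.2 or 1.4 (adjusted p up to 0.0857, limma). The 13 neutrophil markers, none at 0, summed to 2738 to 4146 RPKM in Hoxa9/MTV mice and 5566 to 6837 in Hoxa9/IRX3 mice. Of the 13 tested, 3 were called higher (Elane, Retnlg and Ly6g), beside 1.84% of all tested genes. Ly6g passed the filter only through the Hoxa9/IRX3 mice. Elane was not called without mouse 1.1 or 1.4 (adjusted p up to 0.0745, limma), nor Retnlg without 1.1, 1.2 or 1.4 (up to 0.125). The 11 measured monocyte and macrophage markers summed to 569 to 632 and 490 to 886 RPKM, mostly Ly6c2. Of the 8 tested, 3 were called lower (Ccr2, Cd68 and Klf4), beside 3.52% of all tested genes, and none higher. The median log2 fold change of the 8 was -1.65, and none of them was higher at an unadjusted p under 0.05 or with limma-voom. Without mouse 1.1 or 1.4 Ccr2 was not called (adjusted p up to 0.0528, limma), and Klf4 was not called without 1.1, 1.2, 1.4 or 3.3 (up to 0.153). Erythroid markers, 5 of the 9 measured at 0, summed to 0.0307 to 0.237 and 0.268 to 0.303 RPKM, which in the Hoxa9/IRX3 mice was Klf1 alone. The neutrophil, stromal, erythroid and mast cell sums and the genes Ccr2, Cd68 and Klf4 separated the groups, as Cd34, Gpc1, Cd44, Cd93 and Cd48 did, and their part in the results was not tested. Megakaryocyte sums overlapped (6.20 to 7.64 and 2.41 to 14.5 RPKM), as did B cell sums (6.45 to 7.33 and 2.01 to 43.4) and dendritic cell sums (12.4 to 14.9 and 10.3 to 15.3). Of 3 tested B cell markers, Cd79b was called lower (adjusted p = 0.0383, limma), while in 2 the Hoxa9/IRX3 mice were all higher. Cd79b was not called without 1.1, 1.2, 1.4, 3.2 or 3.3 (adjusted p up to 0.154, limma). Of 5 tested dendritic cell markers 1 was called, Flt3, described above. In the T and NK cell list the sum was Nkg7 almost alone, at 482 RPKM in mouse 3.5 and 14.9 to 100.2 in the other 5 mice, while Cd3e, Cd3d, Cd3g, Trac, Cd4, Cd8a and Ncr1 were listed at 0 in mouse 3.5.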

How the data were processed

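The authors deposited RPKM values per gene and mouse. Per the labels and methods, polyA RNA was prepared with a strand-specific kit and sequenced as 75-base read pairs, reads were aligned to GRCm38 with Bowtie2 2.2.1, filtered with SAMtools 0.1.19 and counted over Ensembl genes; use of strand in counting is not stated in the sources used here. Library totals were recovered from low RPKM values, which are whole multiples of what 1 read is worth (73.2 to 74.5% of low values came out whole within 0.01), so read numbers are reconstructions. Gene types came from GENCODE M21. limma 3.58.1 (R 4.3.3; empirical Bayes with variance trend) was run on log2(RPKM + 0.5) over 9522 protein-coding genes over 0.5 RPKM in at least 1 mouse, with Benjamini-Hochberg adjustment over all of them, and was tested on simulated data. Mouse numbers differ between groups and pair no mice. No column was left unused. Python 3.11.15 with pandas 2.3.3 made the summaries. In bulk samples from 3 mice per group, p-values set the group difference against the spread between these mice, moderated by the variance trend over genes.

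The genes and lists were chosen with earlier results of these data known. The text names the 8 genes, Irx3, Hoxa9 and the sorted antigens, called genes of each family list (at most 4), relatives of the 8 genes, and the 5 genes most like Cd34 and Gpc1. Alternatives changed pseudocount, filter, gene types, scaling, variance model, call rule and mice included.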

Additional observations from a re-analysis of the deposited data

How the results depend on the processing

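No alternative reversed the direction of a called value. Of all tested genes 335 were lower and 175 higher; these counts became 204 lower when all gene types were tested, and 193 lower and 105 higher when a 2-fold change was also required. Median-of-ratios scaling gave 283 lower and 220 higher. Leaving out 1 mouse gave 37 to 506 lower and 24 to 255 higher, with 46 lower and 30 higher without 1.1, 41 and 25 without 1.2, 37 and 24 without 1.4, and 506 lower without 3.2; the cause was not tested. Of the 6 genes not selected by their fall, 1 was lower, 2 were lower under the study's own criterion (Cd44 and Cd93), and 0 to 2 were lower with a mouse left out. The fold change of Cd34 was -4.81 with a pseudocount of 0.1 and -6.45 with limma-voom on recovered reads, and ran from -4.45 to -3.18 with a mouse left out; that of Gpc1 ran from -4.89 to -3.13. Depth limits Podxl, Podxl2, Prom1 outside mouse 3.2 and Cd34 in mouse 3.3, which rest on few reads or none. No paired analysis was possible because the groups share no mouse number.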

Other observations

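Several family genes that no comparison above describes differed widely among the 3 Hoxa9/IRX3 mice. Fut4, a fucosyltransferase that makes selectin ligands, was at 18.1, 15.3 and 19.5 RPKM in mice 1.1, 1.2 and 1.4 and at 2.56, 52.1 and 42.2 RPKM in mice 3.2, 3.3 and 3.5. Mouse 3.2 was thus below and the other two above every Hoxa9/MTV mouse, and the log2 difference was 0.07 ± 1.04 (SE). Cd84, a SLAM receptor, was at 3.25, 2.33 and 2.23 RPKM in the Hoxa9/MTV mice against 0.232, 2.65 and 4.04 RPKM in mice 3.2, 3.3 and 3.5, lowest in the mouse that was also lowest for Cd48. Csf1r, the receptor of macrophage colony-stimulating factor, was at 5.82, 4.77 and 5.94 RPKM in the Hoxa9/MTV mice against 0.790, 6.43 and 0.552 RPKM in mice 3.2, 3.3 and 3.5, so mouse 3.3 alone held it, as for Selplg. These genes were chosen after their values were seen.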
